A study of Homo sapiens with 18 samples.

Results

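The comparison described here is abemaciclib against DMSO in ZR-75-1, an established oestrogen receptor-positive line of luminal breast cancer. Its members are the 6 libraries of that line with these treatments, 3 of each, out of 18 in the series. The cells were unmodified, with a wild-type genotype in the labels, and received 500 nM abemaciclib or DMSO, the solvent of the drug, for 5 days. The other libraries are 3 of ZR-75-1 with 500 nM palbociclib, and 9 of CAMA-1, also a luminal oestrogen receptor-positive line. The CAMA-1 cells had DMSO, abemaciclib or palbociclib at the same dose and time. Values of single genes in these other libraries are given below only where a difference from the comparison was tested. List medians and mitochondrial shares of these libraries are also given, and their differences were not tested. The 3 palbociclib libraries of ZR-75-1 were also fitted together with the 6. They thus share in the filter, the scaling and the estimate of spread behind the test against DMSO. RNA was read at the 3′ end of polyadenylated transcripts, so that a value is the number of reads per gene and, after scaling to a common library size, its CPM, the count for every 1000000 counts of the library. Samples of a treatment are described by the study as independent biological replicates, and all come from a single line in culture.

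Abemaciclib and palbociclib bind the ATP site of CDK4 and CDK6, the kinases that work with D-type cyclins to phosphorylate the retinoblastoma protein. Phosphorylation of that protein releases E2F factors and lets cells enter S phase, so cells on either drug accumulate in G1. The genes of cell division and of the oestrogen response are the best known readouts of these drugs in luminal cells. The following account concerns the other gene groups: organelles, stress responses, RNA and protein turnover, secreted proteins and metabolism. Genes of cell division and of the oestrogen response were not removed from these groups. The study, for example, counts the keratins KRT18 and KRT19 among the hallmark early oestrogen response genes.

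The 6 libraries held 2626383 to 3181072 counts, which makes 3 counts, the floor used here for a gene that is not seen, equal to 0.903 to 1.16 CPM after scaling. Mitochondrial transcripts made up 17.3 to 22.6% of the counts with DMSO and 18.5 to 20.5% with abemaciclib. As a check of the labels, MKI67, CCNA2 and TOP2A, genes of dividing cells, fell by 5.88, 4.64 and 4.14 on the log2 scale. MKI67 stood at 479.9, 501 and 483 CPM with DMSO and at 6.80, 5.42 and 13.1 CPM with abemaciclib. Of 14 genes of luminal identity, such as the oestrogen receptor ESR1 and the keratin KRT18, all were expressed above the filter. Few markers of other cells were: 2 of 9 basal, 1 of 11 fibroblast, 1 of 12 immune and 0 of 8 endothelial genes. In bulk RNA, fewer cells of a kind and less RNA per cell cannot be told apart, and a value in CPM is a share of all counted RNA.

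Of 11017 genes tested, 1971 were higher and 2014 lower with abemaciclib than with DMSO when the adjusted p had to be under 0.05 (edgeR's quasi-likelihood test with Benjamini-Hochberg adjustment over all genes, the test behind every adjusted p below). These are 17.9% and 18.3% of the genes tested, 36.2% together, and the counts for each gene group have to be read against these shares. The change was at least 2-fold for 1229 of them. The median log2 fold change over all genes was -0.0037. The 3 libraries of each treatment did not overlap for 45.8% of the genes. The 89 gene lists and families examined included 49 in which at least 50% of 5 or more tested members were called or the median moved by 0.25 or more, and all but 1 of these are described first.

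**Figure D1:**
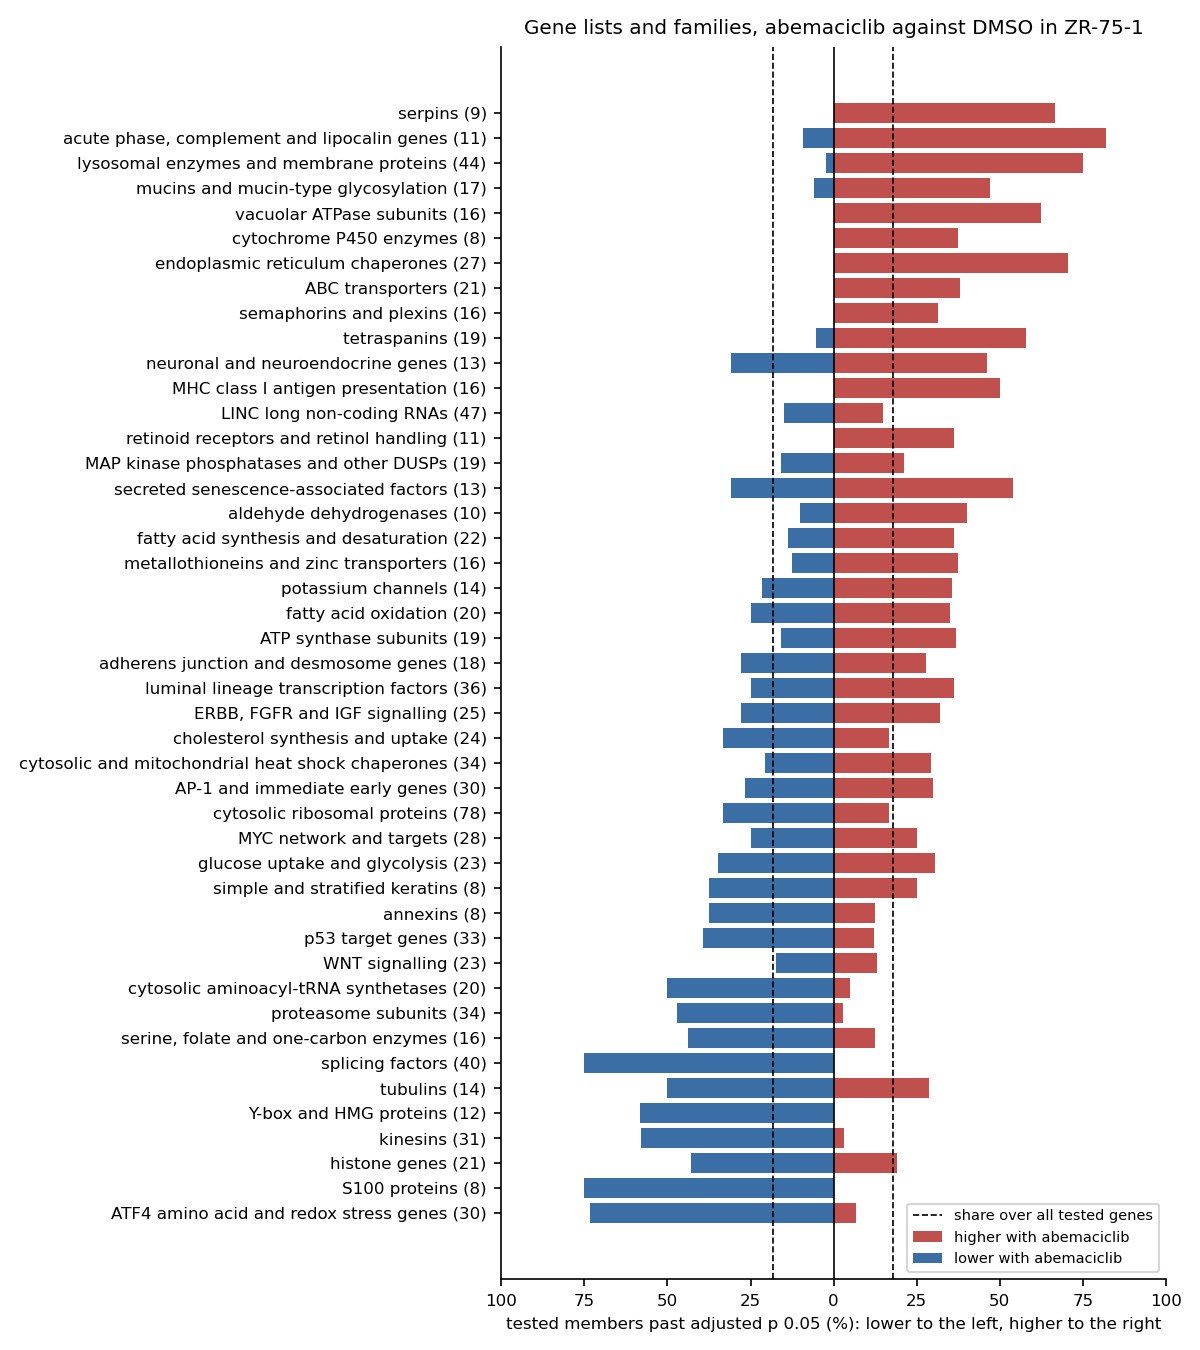
Share of the tested members of each gene list or family described by name with 8 or more of them that was higher (red, to the right) or lower (blue, to the left) with abemaciclib at an adjusted p under 0.05, with the number tested in brackets and lists ordered by median log2 fold change. Dashed lines mark the shares over all genes, 17.9% higher and 18.3% lower. Lysosomal genes, vacuolar ATPase subunits and endoplasmic reticulum chaperones lie almost wholly to the right, and ATF4, splicing factor and S100 genes to the left.

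Genes of the lysosome rose together. Lysosomes digest proteins, lipids and glycans with acid hydrolases, and transcription factors of the TFEB family bind the CLEAR element in the promoters of many of their genes. Of 44 tested genes for lysosomal enzymes and membrane proteins, 33 were higher and 1 was lower, with a median log2 fold change of 0.69. For 36 of the 44 the abemaciclib libraries all lay above the DMSO libraries. CTSD, the aspartic protease cathepsin D, was at 508, 481 and 519 CPM in the DMSO libraries and at 1017, 1096 and 1011 CPM in the abemaciclib libraries, a log2 fold change of 1.05 ± 0.07 (SE, adjusted p = 8.63e-20). Every abemaciclib value was thus above every DMSO value. NPC2, which hands cholesterol out of the lysosome, rose from 70.6, 70.7 and 89.1 CPM to 201, 213 and 182 CPM (log2 fold change 1.38 ± 0.10, adjusted p = 4.81e-18). NEU1, the lysosomal sialidase, had 23.4, 24.98 and 24.4 CPM with DMSO and 82.5, 73.8 and 74.03 CPM with abemaciclib (log2 fold change 1.66 ± 0.13, adjusted p = 1.68e-15). The groups were well apart for both. LAMP2, a glycoprotein of the lysosomal membrane, showed the smaller change of 0.93 ± 0.09, from 119, 114 and 120.3 CPM to 215, 226 and 230.2 CPM (adjusted p = 1.42e-13). The lower member was ARSB, an arylsulfatase of few counts. It had 10.6, 3.91 and 8.13 CPM with DMSO and 2.59, 2.71 and 5.40 CPM with abemaciclib, so that the groups overlapped (log2 fold change -1.09 ± 0.42, adjusted p = 0.036), and its call was lost with DESeq2 (adjusted p = 0.064) and without DMSO replicate 1 (0.26), DMSO replicate 3 (0.085), abemaciclib replicate 1 (0.14) or abemaciclib replicate 2 (0.13). Without abemaciclib replicate 3 the lower members numbered 2.

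A RefSeq promoter window, which runs from 250 bases before to 50 bases after a gene's first listed start (build GRCh38.p14), was matched to 30 of the 44 lysosomal genes. The core of the CLEAR element, TCACGTGA, which reads the same on both strands and holds the E-box CACGTG, occurred in 5 of these 30 windows, 16.7%, against 1.04% of all 27305 windows and 2.11% of the windows of tested genes. Among the genes called, 4 of 20 higher members and 0 of 1 lower member held it. Of these 4 higher members with the core, the windows of the 3 with the smallest p are printed. CTSD, NPC2 and NEU1, whose p was smaller still, are not among the 4. The windows are given in the direction of the gene, with the CLEAR core in capitals, to show how near the start the match lies. PLBD2, a phospholipase B-like protein, and GAA, the acid alpha-glucosidase, are lysosomal enzymes, and LAMP1 is an abundant protein of the lysosomal membrane. They lie at chr12:113358337-113358636 (PLBD2, plus strand), chr17:80101331-80101630 (GAA, plus strand) and chr13:113296989-113297288 (LAMP1, plus strand). The match begins 25 bases before the start in PLBD2, 77 and 32 bases before it in GAA, and 29 and 2 bases before it in LAMP1.
PLBD2: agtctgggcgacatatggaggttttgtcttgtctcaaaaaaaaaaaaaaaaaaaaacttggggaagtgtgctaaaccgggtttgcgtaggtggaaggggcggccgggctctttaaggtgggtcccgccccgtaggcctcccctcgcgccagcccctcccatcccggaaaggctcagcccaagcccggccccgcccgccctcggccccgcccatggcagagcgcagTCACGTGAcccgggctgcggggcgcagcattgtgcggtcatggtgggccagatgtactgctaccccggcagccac
GAA: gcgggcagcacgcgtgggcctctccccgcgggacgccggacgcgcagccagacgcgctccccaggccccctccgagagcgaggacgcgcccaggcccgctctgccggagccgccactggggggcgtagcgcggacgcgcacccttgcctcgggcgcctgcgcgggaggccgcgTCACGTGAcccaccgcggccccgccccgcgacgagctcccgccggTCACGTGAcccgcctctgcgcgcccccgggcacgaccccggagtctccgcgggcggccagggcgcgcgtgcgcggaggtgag
LAMP1: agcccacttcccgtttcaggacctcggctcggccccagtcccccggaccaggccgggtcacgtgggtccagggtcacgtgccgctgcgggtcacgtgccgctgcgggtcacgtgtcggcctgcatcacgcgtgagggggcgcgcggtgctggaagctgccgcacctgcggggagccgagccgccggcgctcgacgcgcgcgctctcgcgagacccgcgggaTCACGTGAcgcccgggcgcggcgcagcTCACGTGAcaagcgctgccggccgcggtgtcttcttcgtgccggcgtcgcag
In the libraries, PLBD2 went from 18.9, 18.1 and 15.2 CPM to 45.3, 51.4 and 50.9 CPM, GAA from 47.2, 50.6 and 44.4 CPM to 111, 87.7 and 84.8 CPM and LAMP1 from 537, 491 and 508 CPM to 687, 709 and 713 CPM. Their log2 fold changes were 1.49 ± 0.16, 1.00 ± 0.12 and 0.46 ± 0.07 (SE). A match of letters is a description of the window and shows no binding.

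The proton pump that acidifies the lysosome moved with its enzymes. Of 16 tested subunits of the vacuolar ATPase, 10 were higher and 0 lower, with a median of 0.60. ATP6AP1, an accessory subunit needed for assembly of the pump, had the largest change in the list (285, 257 and 265 CPM with DMSO, 644, 709 and 648 CPM with abemaciclib, log2 fold change 1.31 ± 0.07, adjusted p = 1.08e-22). ATP6AP2 rose from 139, 135 and 141 CPM to 243, 248 and 251 CPM, by 0.84 ± 0.08, and ATP6V0E1 and ATP6V1G1, of the membrane and the cytosolic sector, rose by 0.70 ± 0.08 and 0.61 ± 0.07. Members that did not pass the test included ATP6V1B2 (log2 fold change -0.12) and ATP6V1E1 (-0.03). In the autophagy list, 12 of 34 tested genes were higher and 3 lower, with a median of 0.13, and the lower ones numbered 1 without DMSO replicate 3 or abemaciclib replicate 2. Those that rose included BECN1, of the kinase complex that starts the autophagosome (0.96 ± 0.10), the lipid-binding WIPI1 (1.22 ± 0.16), and GABARAPL1 and MAP1LC3B, which coat the autophagosome membrane (1.46 ± 0.20 and 0.83 ± 0.13). MAP1LC3B had 37.6, 34.9 and 33.9 CPM with DMSO and 62.5, 65.7 and 60.9 CPM with abemaciclib.

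The chaperones of the endoplasmic reticulum, which fold secreted and membrane proteins, were also higher. Of 27 tested, 19 were higher and 0 lower (median 0.47). HSPA5, the reticulum's Hsp70 also called BiP, was at 324, 368 and 328 CPM with DMSO and at 529, 484 and 572 CPM with abemaciclib, a log2 fold change of 0.64 ± 0.08 (adjusted p = 9.27e-10). P4HB, a protein disulfide isomerase, went from 496, 487 and 523 CPM to 733, 799.5 and 732 CPM (0.59 ± 0.07, adjusted p = 2.71e-10). HSP90B1, the Hsp90 of the reticulum, and CALR, the lectin chaperone calreticulin, had log2 fold changes of 0.56 ± 0.07 and 0.56 ± 0.07. These changes were modest in size but the libraries of the groups did not overlap for any of the 4. HERPUD1, SDF2L1 and XBP1, which are also induced in the unfolded protein response, had log2 fold changes of -0.15, 0.09 and 0.11, and none of the 3 passed the test. Among chaperones of the cytosol and mitochondria the directions were mixed, with 10 of 34 higher and 7 lower (median 0.05). HSPA1A, a heat-inducible Hsp70, rose by 0.75 ± 0.08 and the small heat shock protein HSPB8 by 3.87 ± 0.53 from near the floor, whereas PTGES3, an Hsp90 co-chaperone, and CCT5, a subunit of the TRiC chaperonin, changed by -0.65 ± 0.07 and -0.38 ± 0.07. HSPA1A shares nearly all of its sequence with HSPA1B, so that reads could be divided between them. Without abemaciclib replicate 1 the lower chaperones of the cytosol and mitochondria numbered 4.

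**Figure D2:**
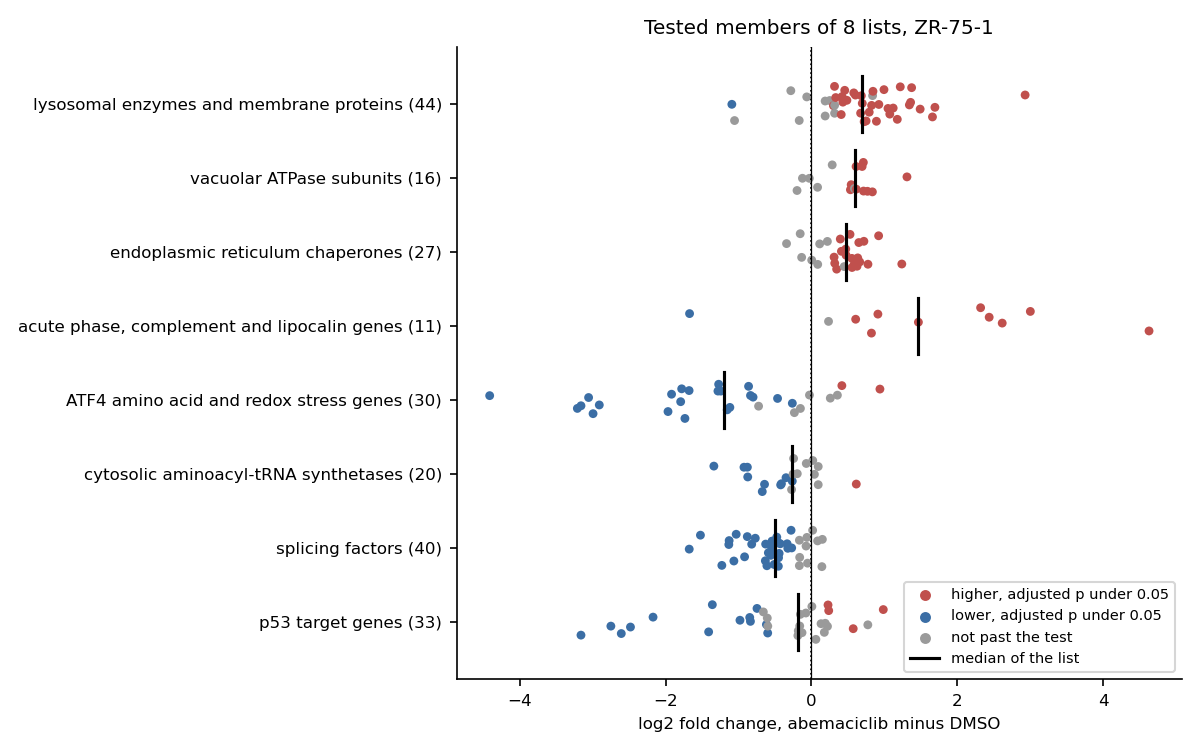
Log2 fold change (abemaciclib minus DMSO) of every tested member of 8 lists, with 1 point per gene coloured by its call and a black line at the median of the list. Lysosomal members lie to the right around a median of 0.69, with 5 below 0, whereas ATF4 members reach from -4.41 to 0.94 around a median of -1.20.

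The lowest median of the 49 lists was that of ATF4 targets. ATF4 is the transcription factor of the integrated stress response, which cells use to raise amino acid uptake and synthesis and to make glutathione when amino acids are short or the reticulum is stressed. Of 30 tested genes of the list, 22 were lower and 2 higher (median -1.20), and none of the alternative analyses changed the count of lower genes. ATF4 itself was at 387, 295 and 308 CPM with DMSO and at 113, 96.1 and 99.5 CPM with abemaciclib, a log2 fold change of -1.68 ± 0.09 (adjusted p = 2.94e-22). SLC7A11, which imports cystine for glutathione synthesis, was at 47.2, 35.8 and 30.1 CPM against 1.29, 3.05 and 0.771 CPM (-4.41 ± 0.32, adjusted p = 2.28e-17), so that the abemaciclib values lay near the floor. SLC7A5, the large neutral amino acid transporter LAT1, was at 59.1, 39.4 and 46.1 CPM against 5.82, 6.43 and 6.94 CPM (-2.91 ± 0.22, adjusted p = 1.26e-16). GDF15, a secreted stress cytokine that is also listed among p53 targets and senescence factors, was at 131, 125 and 102 CPM against 12.3, 11.2 and 16.97 CPM (-3.16 ± 0.15, adjusted p = 4.16e-25). No abemaciclib library came near the lowest DMSO library for these 4 genes. Other lower members were CHAC1, which degrades glutathione (log2 fold change -3.21), the stress regulators NUPR1 (-2.99), TRIB3 (-1.97) and DDIT3 (-1.79), and the serine synthesis enzymes PHGDH (-1.92) and PSAT1 (-1.78). The 2 higher members were ALDH18A1, of proline synthesis (0.94 ± 0.12), and the ATF4 relative ATF5 (0.42 ± 0.13). The call of ATF5 was lost without DMSO replicate 3 (adjusted p = 0.057).

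A promoter window was matched to 25 of the 30 tested members. The C/EBP-ATF response element, searched as TGATGNAAN on both strands, was found in 4 of these windows, 16%, against 3.67% of all windows and 1.46% of the windows of tested genes. All 4 belong to the 18 lower members with a window. The 3 with the smallest p are SLC7A1, the cationic amino acid transporter, SLC3A2, the heavy chain that pairs with SLC7A5 and SLC7A11 at the membrane, and ATF3, a stress-induced factor of the ATF family. They are printed to show where the element lies, in the direction of the gene and with the match in capitals. The windows lie at chr13:29595639-29595938 (SLC7A1, minus strand), chr11:62881449-62881748 (SLC3A2, plus strand) and chr1:212565157-212565456 (ATF3, plus strand). The match begins 7 bases after the start in SLC7A1, 36 bases after it on the opposite strand in SLC3A2, and 191 bases before it in ATF3.
SLC7A1: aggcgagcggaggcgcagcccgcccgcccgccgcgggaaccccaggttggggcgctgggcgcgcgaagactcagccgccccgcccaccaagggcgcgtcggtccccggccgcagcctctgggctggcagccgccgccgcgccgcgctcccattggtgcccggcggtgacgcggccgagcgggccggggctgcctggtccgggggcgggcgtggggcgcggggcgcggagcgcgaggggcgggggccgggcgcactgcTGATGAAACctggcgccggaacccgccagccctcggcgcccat
SLC3A2: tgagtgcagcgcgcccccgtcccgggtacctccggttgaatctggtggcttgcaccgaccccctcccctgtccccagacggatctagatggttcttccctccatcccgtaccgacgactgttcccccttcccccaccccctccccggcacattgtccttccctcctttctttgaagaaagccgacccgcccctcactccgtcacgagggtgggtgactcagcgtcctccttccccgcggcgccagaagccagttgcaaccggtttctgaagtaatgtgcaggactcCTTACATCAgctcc
ATF3: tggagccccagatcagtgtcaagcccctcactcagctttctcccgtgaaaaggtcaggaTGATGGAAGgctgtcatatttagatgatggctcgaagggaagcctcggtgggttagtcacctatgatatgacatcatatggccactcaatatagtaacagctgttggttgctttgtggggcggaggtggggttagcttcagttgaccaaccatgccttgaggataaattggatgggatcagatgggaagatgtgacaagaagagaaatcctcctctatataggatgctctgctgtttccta
SLC7A1 fell from 119, 114 and 119 CPM to 57.9, 40.6 and 45.9 CPM (-1.28 ± 0.12), SLC3A2 from 90.2, 82.2 and 94.5 CPM to 33.3, 36.9 and 40.5 CPM (-1.27 ± 0.12) and ATF3 from 24.1, 25.3 and 27.4 CPM to 7.44, 6.43 and 9.25 CPM (-1.73 ± 0.24). The other motifs were each searched, on both strands, in the list they were chosen for. The inverted CCAAT box ATTGG occurred in 21 of 25 windows of reticulum chaperones, 84%. It was in 35.7% of all windows and 37.7% of those of tested genes, and in 14 of 17 higher chaperones. The interferon-stimulated response element core GAAANNGAA occurred in 12 of 18 windows of interferon-stimulated genes (66.7% against 8.29% and 6.08%). Of the called genes, 3 of 3 higher and 3 of 3 lower members held it. The antioxidant response element core TGACNNNGC was in 4 of 18 windows of antioxidant and iron storage genes (22.2% against 13.6% and 15.4%). The E-box CACGTG was in 16 of 43 of ribosome biogenesis genes (37.2% against 7.43% and 10.5%). The sterol regulatory element core TCACNCCAC was in 1 of 18 windows of cholesterol genes (1.15% of all windows) and the AP-1 site TGANTCA in 1 of 20 of immediate early genes (7.76%). Each motif, the CLEAR and C/EBP-ATF elements included, was chosen for its list. A share above that of all windows thus describes the list and not the response to abemaciclib.

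Enzymes that charge transfer RNAs with amino acids, several of which are themselves ATF4 targets, were lower in part. Of 20 cytosolic aminoacyl-tRNA synthetases, 10 were lower and 1 higher (median -0.27). MARS1, for methionine, was at 147, 121 and 117 CPM with DMSO and 49.5, 46.4 and 56.7 CPM with abemaciclib (-1.34 ± 0.11, adjusted p = 6.95e-15), and AARS1, for alanine, at 321, 287 and 323 CPM and 171, 165 and 154 CPM (-0.92 ± 0.08). TARS1 and CARS1, for threonine and cysteine, changed by -0.67 ± 0.09 and -0.88 ± 0.12. QARS1, for glutamine, was the exception, at 82.2, 75.2 and 73.5 CPM against 124, 117 and 113 CPM (0.62 ± 0.10, adjusted p = 2.41e-06). In the serine, folate and one-carbon list, 7 of 16 were lower and 2 higher (median -0.36), and 5 of the 16 are also in the ATF4 list. MTHFD2 and SHMT2, the mitochondrial folate enzymes, changed by -1.12 ± 0.10 and -0.80 ± 0.11. FPGS, which retains folates in the cell, was higher by 0.45 ± 0.12, and 1 member in place of 2 was higher with DESeq2, with no filter, or when DMSO replicate 1, 2 or 3 or abemaciclib replicate 2 was left out.

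**Figure D3:**
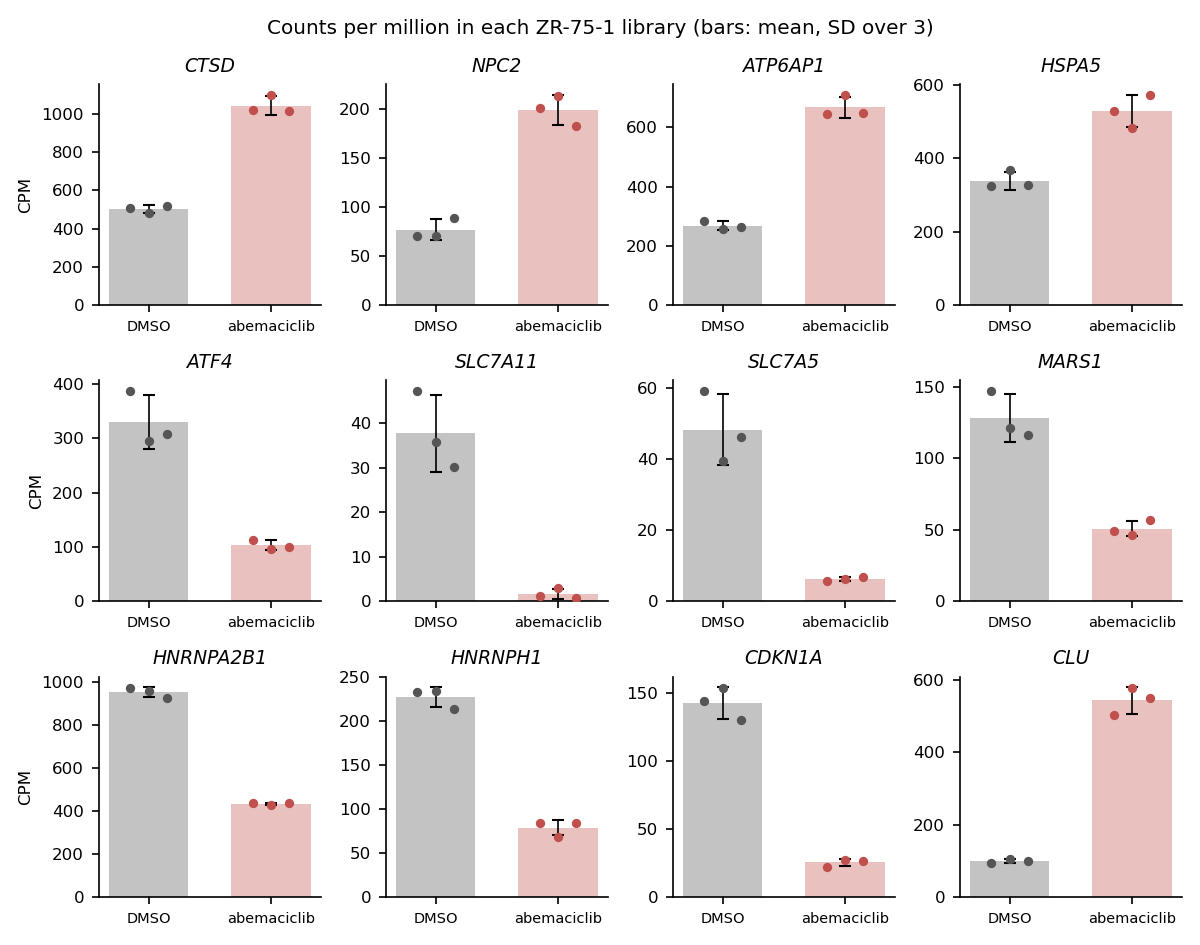
CPM of 12 genes in each of the 3 DMSO (grey) and 3 abemaciclib (red) libraries of ZR-75-1, with bars for the mean and error bars for the SD, each axis starting at 0. The libraries of the groups do not overlap for any of the 12 genes. CTSD, NPC2, ATP6AP1, HSPA5 and CLU are higher with abemaciclib and the other 7 lower.

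Several targets of p53 were lower, among them the CDK inhibitor gene CDKN1A. Of 33 tested genes that p53 is known to activate, 13 were lower and 4 higher (median -0.19). CDKN1A, which encodes p21, was at 144, 153 and 130.1 CPM with DMSO and at 22.3, 27.4 and 26.99 CPM with abemaciclib, a log2 fold change of -2.48 ± 0.12 (adjusted p = 2.03e-24). RPS27L, a ribosomal protein relative, went from 323, 366 and 311 CPM to 115, 128 and 134 CPM (-1.41 ± 0.09), and DDB2, a sensor of ultraviolet damage, from 39.5, 36.7 and 35.9 CPM to 6.15, 7.11 and 11.95 CPM (-2.17 ± 0.22). The groups stayed apart for all 3. The apoptosis genes BBC3, BAX and TNFRSF10B changed by -1.36, -2.61 and -0.84. By contrast MDM2, the ubiquitin ligase that p53 induces and that restrains it, was at 292, 314 and 307 CPM against 377, 349.7 and 343 CPM (0.23 ± 0.07, adjusted p = 0.0094). Its call was lost without DMSO replicate 1 (adjusted p = 0.053) or abemaciclib replicate 1 (0.081), and the count of higher p53 targets was 2 with DESeq2 or with no filter, 1 without abemaciclib replicate 1, and 2 without DMSO replicate 1 or 2 or abemaciclib replicate 2 or 3. RRM2B, the p53-induced ribonucleotide reductase subunit, was higher by 0.99 ± 0.26.

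Splicing factors were mostly lower. These proteins recognise exons and introns and include the hnRNP proteins, which coat nascent RNA, and the SR proteins, which promote exon inclusion. Of 40 tested, 30 were lower and 0 higher (median -0.49), with 1 higher when DMSO replicate 2 was left out. HNRNPA2B1 was at 974, 960.1 and 928 CPM with DMSO and at 437, 429.9 and 439 CPM with abemaciclib (-1.13 ± 0.07, adjusted p = 3.34e-21), and HNRNPH1 at 234, 234 and 214 CPM and 84.5, 69.1 and 84.4 CPM (-1.52 ± 0.10, adjusted p = 4.23e-19). HNRNPD and HNRNPH3 changed by -1.23 ± 0.08 and -1.68 ± 0.14. Among the SR proteins SRSF1, SRSF3, SRSF7 and SRSF2 changed by -1.13, -1.03, -0.92 and -0.88. The epithelial splicing regulator ESRP1 fell by 1.06 on the log2 scale, whereas its relative ESRP2 had 0.15 and did not pass the test. The 10 members that did not pass the test ranged from -0.16 to 0.15, and 1 of the 40 was called higher without DMSO replicate 2.

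Protein turnover by the proteasome was represented by 34 subunits, of which 16 were lower and 1 was higher (median -0.28). The ATPase subunit PSMC3 had the lowest p, at 108, 106 and 113 CPM with DMSO and 50.5, 58.2 and 50.9 CPM with abemaciclib (-1.04 ± 0.11, adjusted p = 1.16e-11). PSMD4, a ubiquitin receptor, PSMB1, of the catalytic core, and the ATPase PSMC1 changed by -0.61 ± 0.07, -0.57 ± 0.08 and -0.59 ± 0.09. PSMD1 was higher by 0.23 ± 0.08, a call that was lost when DMSO replicate 1 or 3 or abemaciclib replicate 2 or 3 was left out. The proteins of the cytosolic ribosome moved little as a group: 13 of 78 were higher and 26 lower, but the median was -0.06. RPS29 and RPS21, small proteins of the small subunit, went from 4689.9, 4314 and 4601 CPM to 2639, 2970.2 and 2613 CPM and from 2355, 2106 and 2334 CPM to 1427, 1524 and 1382 CPM, changes of -0.73 ± 0.07 and -0.65 ± 0.07. RPL22 was higher, by 0.52 ± 0.07. Without abemaciclib replicate 1 the lower ribosomal proteins numbered 17. Many of these genes have near-identical processed copies, so their counts are less certain.

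Chromatin and cytoskeleton genes held some of the strongest falls. Of 21 tested histone genes 9 were lower and 4 higher (median -0.82). Most core histone transcripts are made in S phase and lack a poly(A) tail, so that the method reads them in part only, and the counts of close copies are uncertain. H4C3 was at 1067, 844 and 1167 CPM with DMSO and at 95.1, 105 and 87.5 CPM with abemaciclib (-3.41 ± 0.10, adjusted p = 8.63e-35). The linker histones H1-10 and H1-2 changed by -2.69 ± 0.11 and -2.27 ± 0.10. H2AC6 and H3C10 were higher, by 1.14 ± 0.28 and 1.17 ± 0.36, from 6.10, 6.62 and 7.79 CPM and from 5.46, 3.31 and 4.40 CPM with DMSO, and the higher histones numbered 2 without DMSO replicate 1 or 2. Among HMG and Y-box chromatin proteins 7 of 12 were lower and 0 higher (median -0.64), and 5 of the 12 also belong to the cell cycle list. HMGB2, which bends DNA, fell from 275, 234 and 296 CPM to 7.44, 10.5 and 6.56 CPM (-5.02 ± 0.16, adjusted p = 2.65e-33), and its relatives HMGB1 and HMGB3 by 1.19 and 1.15 on the log2 scale.

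Tubulins moved in both directions: 7 of 14 were lower and 4 higher (median -0.52). TUBA1B, the main alpha-tubulin, was at 2551, 2554 and 2508 CPM with DMSO and at 884, 944 and 937 CPM with abemaciclib (-1.46 ± 0.07, adjusted p = 2.86e-26). TUBB, TUBB4B and TUBA1C changed by -1.01 ± 0.07, -1.03 ± 0.07 and -0.95 ± 0.07. TUBB2A was higher, at 47.5, 51.5 and 44.4 CPM against 70.2, 94.8 and 86.4 CPM (0.81 ± 0.12), and TUBA3D rose from 1.28, 0 and 1.35 CPM to 9.06, 9.48 and 11.2 CPM (3.47 ± 0.50). Reads of tubulin isotypes may be shared between genes. Kinesins, the motors that walk on tubulin, were lower for 18 of 31 and higher for 1 (median -0.73), and 12 of the 31 are in the cell cycle list. KIF14, needed for cytokinesis, was at 86.02, 83.7 and 106 CPM against 5.82, 9.48 and 9.64 CPM (-3.47 ± 0.18). KIF20A, at 29.2, 29.2 and 29.1 CPM with DMSO, had 6 counts in all in the abemaciclib libraries, a ratio of summed counts of 42.0 (exact 95% counting interval 19.1 to 115) in favour of DMSO. The single higher kinesin was KIF12, at 5.14, 2.41 and 2.03 CPM against 9.38, 9.82 and 10.8 CPM (1.63 ± 0.38).

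Secreted proteins of the mammary and acute phase kind rose. The list of acute phase, complement and lipocalin genes also holds mammary secreted proteins, SCGB2A2 and PIP among them. Of its 30 genes the expression filter kept 11, of which 9 were higher and 1 was lower (median 1.47). A listed gene near silent with DMSO could pass the filter only through libraries of a drug, and could not have been called lower. CLU, the extracellular chaperone clusterin, was at 94.7, 106 and 99.3 CPM with DMSO and at 503.5, 576 and 548 CPM with abemaciclib (2.44 ± 0.08, adjusted p = 4.50e-32). SCGB2A2, which encodes mammaglobin, was at 357, 359 and 419 CPM against 1011, 1114 and 1016 CPM (1.47 ± 0.07, adjusted p = 9.09e-25), and PIP, the prolactin-induced protein, at 5.78, 6.62 and 8.13 CPM against 48.5, 59.6 and 57.1 CPM (3.00 ± 0.19). SERPINA1, the elastase inhibitor alpha-1 antitrypsin, went from 12.2, 11.4 and 9.15 CPM to 50.2, 58.2 and 56.7 CPM (2.32 ± 0.16). CD55, which protects cells from complement, was the lower member, at 21.2, 15.7 and 18.6 CPM against 7.44, 4.74 and 5.01 CPM (-1.67 ± 0.29), while CD59, another such inhibitor, was higher by 0.82. Of the 35 serpins, a family of protease inhibitors, the expression filter kept 9, with 6 higher and 0 lower (median 2.32). A gene silent with DMSO, such as SERPINA4, could pass that filter only through libraries of a drug. The count of higher serpins therefore holds members that could not have been called lower. SERPINA5 rose from 2.57, 3.61 and 4.06 CPM to 21.03, 18.6 and 18.1 CPM (2.49 ± 0.27). With 0 counts of SERPINA4 in each of the DMSO libraries, its abemaciclib level was, against the floor, at least 4.73-fold higher, and with the gene set to that bound the median of the family was 2.24. SERPINE2 had 8 counts with DMSO and 52 with abemaciclib, a ratio of 7.07 (3.33 to 17.2).

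S100 proteins, small calcium-binding proteins, went the other way, with 6 of 8 lower and 0 higher (median -0.91). S100A6 was at 1866, 1751 and 1791 CPM with DMSO and at 815, 870.2 and 853 CPM with abemaciclib (-1.09 ± 0.06, adjusted p = 4.38e-21). S100A14, the most abundant of those named, was at 3647, 3452 and 3477 CPM against 1879, 1888 and 1868 CPM (-0.91 ± 0.06), and S100A16 and S100A13 changed by -1.04 ± 0.08 and -0.90 ± 0.10. S100P had the lowest fold change of the family, -3.19, at a low level. Mucins and the enzymes that glycosylate them were higher for 8 of 17 and lower for 1 (median 0.63). MUC1, the mucin of the luminal cell surface, rose from 1055, 1071 and 1048 CPM to 1741, 1770.3 and 1671 CPM (0.71 ± 0.06, adjusted p = 1.06e-13) and MUC5B, a secreted mucin, from 53.9, 67.1 and 65.7 CPM to 145, 115 and 117 CPM (1.01 ± 0.11). The glycosyltransferases ST6GALNAC4 and GALNT7 were higher by 1.20 ± 0.14 and 0.63 ± 0.12, and GALNT10 was lower (-0.58 ± 0.15). Among tetraspanins, which organise membrane domains, 11 of 19 were higher and 1 lower (median 0.40). CD81 rose from 339, 368 and 372 CPM to 727, 826 and 751 CPM (1.10 ± 0.07), whereas CD9 was at 76.4, 76.8 and 78.9 CPM against 46.3, 49.1 and 44.7 CPM (-0.73 ± 0.15).

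Of 13 tested genes from a list of factors that senescent cells secrete, 7 were higher and 4 lower (median 0.26), and the expression filter kept only these 13 of the 42 factors listed. IGFBP5, which binds insulin-like growth factors, rose from 1261, 1341 and 1353 CPM to 3576, 3739 and 3497 CPM (1.45 ± 0.07, adjusted p = 3.18e-26). The metalloproteinase inhibitors TIMP1 and TIMP2 went from 8.67, 9.93 and 7.45 CPM to 67.96, 66.00 and 54.8 CPM and from 34.99, 45.4 and 45.7 CPM to 113, 132 and 123 CPM (2.85 ± 0.18 and 1.54 ± 0.11). The lower members included GDF15, described above, and AREG, a ligand of the epidermal growth factor receptor (-0.59 ± 0.13). Genes that load and present antigens on MHC class I had 8 of 16 higher and 0 lower (median 0.35), and the 4 with the smallest p were chaperones of loading: CALR, TAPBP (0.58 ± 0.10), PDIA3 (0.40 ± 0.07) and CANX (0.31 ± 0.06). Of the 16, CALR, PDIA3 and CANX are also counted among the reticulum chaperones. Without DMSO replicate 2, 1 member of the antigen presentation list was lower. Of 5 HLA genes, 3 were higher and 0 lower (median 0.58), and 1 was lower without DMSO replicate 2. HLA-E rose from 35.6, 34.01 and 34.2 CPM to 48.2, 55.9 and 51.7 CPM (0.58 ± 0.14). HLA genes vary between people and share sequence, which makes their counts less certain.

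In lipid metabolism, 8 of 22 tested genes of fatty acid synthesis and desaturation were higher, 3 were lower and 11 did not pass the test (median 0.23). SREBF1, the transcription factor of lipogenic genes, was at 65.5, 56.3 and 69.1 CPM with DMSO and at 162, 154 and 168 CPM with abemaciclib (1.34 ± 0.10, adjusted p = 5.09e-17), and MLXIPL, the carbohydrate-responsive factor ChREBP, at 16.4, 13.8 and 12.9 CPM against 33.7, 32.2 and 36.2 CPM (1.24 ± 0.18). FASN, the fatty acid synthase, and SCD, the delta-9 desaturase, rose by 0.67 ± 0.07 and 0.70 ± 0.06, from 1049.9, 1171 and 1104 CPM and from 1721, 1692 and 1596 CPM. These 4 did not overlap between groups. FADS1, the delta-5 desaturase, was lower, at 92.4, 107 and 90.4 CPM against 21.7, 34.5 and 32.00 CPM (-1.72 ± 0.13, adjusted p = 2.50e-16). The binding protein FABP5 had 7 counts in all with abemaciclib against 7.70, 6.32 and 7.11 CPM with DMSO, a ratio of summed counts of 8.67 (3.98 to 22.4) in favour of DMSO.

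Cholesterol genes were divided: 4 of 24 were higher and 8 lower (median 0.05). ACAT2, which starts the pathway, was at 82.5, 105 and 104 CPM against 41.4, 33.8 and 35.1 CPM (-1.40 ± 0.13, adjusted p = 6.48e-14), and FDPS, EBP and FDFT1 were lower by 0.56, 0.58 and 0.45 on the log2 scale. DHCR7, which makes cholesterol in its last step, was higher (0.80 ± 0.10). The lower cholesterol genes numbered 5 with DESeq2, with no filter, or without DMSO replicate 2 or abemaciclib replicate 2, and the higher ones 2 without DMSO replicate 1. In fatty acid oxidation 7 of 20 were higher and 5 lower (median 0.13). CPT1A, which admits long-chain fatty acids to mitochondria, fell from 1047, 1096 and 1021 CPM to 429, 424 and 406 CPM (-1.33 ± 0.07, adjusted p = 5.16e-24), while ACAA1 of the peroxisome was higher (1.14 ± 0.12). Glycolysis was divided, with 7 of 23 higher and 8 lower (median -0.11). PKM and HK1 rose by 0.81 ± 0.07 and 0.88 ± 0.10. The enolases ENO2 and ENO1 and the lactate dehydrogenases LDHA and LDHB were lower, by 1.62, 0.66, 0.67 and 2.99 on the log2 scale. LDHB was at 8.67, 12.04 and 10.5 CPM against 0.971, 1.35 and 1.54 CPM.

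Among growth factor signalling genes there were changes in both directions, 8 of 25 higher and 7 lower in the ERBB, FGFR and IGF list (median 0.06). IRS2, the adaptor of the insulin receptor, fell from 30.5, 26.2 and 41.3 CPM to 5.50, 7.11 and 6.94 CPM (-2.32 ± 0.25, adjusted p = 2.94e-11). The receptor tyrosine kinase FGFR4 was lower (-0.88 ± 0.14), and ERBB2 (0.46 ± 0.10) and IGF2R, which clears IGF2 (0.82 ± 0.10), were higher. Immediate early genes, the first to answer growth signals, were higher for 9 of 30 and lower for 8 (median 0.01). EGR3 rose from 17.7, 21.4 and 14.9 CPM to 76.7, 77.2 and 81.7 CPM (2.12 ± 0.15), CCN1 from 12.8, 20.8 and 19.99 CPM to 63.1, 42.99 and 68.6 CPM (1.70 ± 0.18) and ZFP36, which destabilises mRNAs, from 3.85, 6.02 and 4.40 CPM to 23.9, 25.05 and 30.5 CPM (2.45 ± 0.29). KLF2 and IER5 fell, from 117, 125 and 115 CPM to 41.4, 48.7 and 51.3 CPM and from 54.2, 52.4 and 45.7 CPM to 13.3, 8.80 and 14.3 CPM (-1.34 ± 0.11 and -2.07 ± 0.19). The count of higher genes was 5 with DESeq2 and from 7 to 13 without each library in turn. JUN, a subunit of AP-1, overlapped between groups, at 95.97, 140.3 and 74.9 CPM with DMSO and 120.4, 127 and 189 CPM with abemaciclib (0.47 ± 0.13, adjusted p = 0.0030).

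Lineage factors of luminal cells had 13 of 36 members higher and 9 lower (median 0.07). ELF1, of the ETS family, rose by 0.85 ± 0.09 and IRX3, a homeobox factor, from 183, 193 and 174 CPM to 333, 338 and 324 CPM (0.85 ± 0.08). NR2F1, an orphan nuclear receptor, fell from 79.6, 66.8 and 50.5 CPM to 27.2, 38.93 and 32.4 CPM (adjusted p = 1.76e-07), and CBFB, the partner of RUNX factors, was lower too (-0.91 ± 0.15). Keratins were divided, with 2 of 8 higher and 3 lower (median -0.15). KRT15 rose from 0.963, 2.41 and 2.37 CPM to 17.8, 15.9 and 26.6 CPM (3.36 ± 0.35) and KRT19 by 0.34 ± 0.06, while the hair keratin KRT81 fell from 30.5, 33.1 and 25.7 CPM to 3.56, 4.40 and 4.24 CPM (-2.87 ± 0.27) and KRT18 from 829, 842 and 823 CPM to 637, 651 and 625 CPM (-0.38 ± 0.06). In a list of neuronal and neuroendocrine genes 6 of 13 were higher and 4 lower (median 0.37). SSTR2, a somatostatin receptor, went from 52.00, 52.1 and 50.8 CPM to 323, 331 and 313 CPM (2.64 ± 0.09, adjusted p = 8.49e-32). The neuropeptide NMU and the synaptic organiser CBLN2 were nearly lost, at 42.7, 46.7 and 49.5 CPM against 1.62, 2.37 and 3.47 CPM and at 44.6, 53.9 and 48.4 CPM against 1.29, 2.71 and 3.08 CPM (-4.23 ± 0.25 and -4.38 ± 0.27).

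MT2A, a metallothionein that binds zinc and copper, was at 266, 227 and 271 CPM with DMSO and at 24.9, 31.1 and 35.5 CPM with abemaciclib (-3.07 ± 0.11, adjusted p = 2.55e-30), and its relative MT1F was lower too (-1.01 ± 0.22). The zinc transporters SLC39A11, SLC39A6 and SLC39A7 were higher by 0.38 ± 0.07, 0.30 ± 0.07 and 0.44 ± 0.11, within a list of 16 with 6 higher and 2 lower (median 0.17). ABC transporters had 8 of 21 higher and 0 lower (median 0.42), led by ABCC11, an exporter of steroid conjugates (40.8, 28.6 and 34.6 CPM against 93.8, 104 and 90.2 CPM, 1.47 ± 0.12). Without abemaciclib replicate 1 the higher ABC transporters numbered 5.

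Genes of cell adhesion and shape showed changes of both signs. In the list of adherens junctions and desmosomes 5 of 18 were higher and 5 lower (median 0.09). The nectins NECTIN4 and NECTIN2 rose by 0.95 ± 0.14 and 0.61 ± 0.09, whereas DSP, desmoplakin, which ties desmosomes to keratin, fell from 258, 246 and 249 CPM to 159, 166 and 160.0 CPM (-0.63 ± 0.08, adjusted p = 5.32e-09). CDH1, E-cadherin, was at 853, 823 and 844 CPM with DMSO and 996, 991 and 1021 CPM with abemaciclib (0.25 ± 0.07). Without DMSO replicate 2 or abemaciclib replicate 1 the lower members of that list numbered 3. EZR and RDX, which link actin to the membrane, changed by -0.58 ± 0.07 and -0.68 ± 0.09, and the actin-binding PFN1 and CFL1 by -0.42 ± 0.08 and -0.26 ± 0.07. GSN, which severs actin filaments, and RHOD were higher (0.96 ± 0.15 and 0.87 ± 0.13). Of the annexins, which bind membranes in the presence of calcium, 3 of 8 were lower and 1 higher (median -0.17). ANXA2 fell from 183, 193 and 189 CPM to 119, 105 and 116 CPM (-0.73 ± 0.09), and ANXA9 rose from 3.53, 2.11 and 2.37 CPM to 13.9, 16.9 and 21.2 CPM (2.68 ± 0.32). Semaphorins and plexins, which are guidance ligands and their receptors, had 5 of 16 higher and 0 lower (median 0.40). PLXNA2 rose from 3.53, 4.51 and 4.06 CPM to 27.8, 17.9 and 20.8 CPM (2.45 ± 0.29) and SEMA3C from 157, 167 and 170.0 CPM to 232, 244 and 223 CPM (0.50 ± 0.08).

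Potassium channels, which set the membrane potential, had 5 of 14 members higher and 3 lower (median 0.16). KCNK6, a leak channel, rose from 102, 119.8 and 112 CPM to 214, 236 and 217 CPM (0.99 ± 0.08, adjusted p = 8.76e-15), with no overlap of the groups, and KCNK2, a related channel, was lower (-0.96 ± 0.27). The higher channels numbered 3 without abemaciclib replicate 1 and the lower ones 1 without DMSO replicate 3. Among the dual-specificity phosphatases, several of which inactivate MAP kinases, 4 of 19 were higher and 3 lower. These counts are close to the shares over all genes, with a median of 0.27. DUSP4 was at 159, 148 and 171 CPM with DMSO and at 131, 124 and 135 CPM with abemaciclib (-0.29 ± 0.08), and DUSP3 at 25.04, 43.04 and 34.6 CPM and 68.6, 57.9 and 54.8 CPM (0.82 ± 0.15). The higher phosphatases numbered 2 with DESeq2 and 2 without DMSO replicate 3 or abemaciclib replicate 1 or 3. Long non-coding RNAs with LINC names had 7 of 47 higher and 7 lower, shares below those over all genes, with a median of 0.32. LINC01588 rose from 5.78, 4.21 and 7.79 CPM to 45.3, 49.4 and 41.3 CPM (2.94 ± 0.20, adjusted p = 1.63e-18), and the lower ones numbered 4 with DESeq2 and 4 without DMSO replicate 2 or 3 or abemaciclib replicate 3. Of the ADAM and ADAMTS proteases, which cut proteins at the cell surface and in the matrix, 2 of 7 were higher and 0 lower, although the median was -0.27. The higher ones were ADAM15 (0.46 ± 0.08) and ADAMTS15 (0.32 ± 0.12). Higher members of this family numbered 1 with DESeq2, with no filter, and without DMSO replicate 1 or 3 or abemaciclib replicate 1 or 2, and 1 member was lower with the 6 libraries alone and without DMSO replicate 2 or abemaciclib replicate 3.

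The MYC network was divided, with 7 of 28 higher and 7 lower (median -0.11). MXD3, a partner of MAX, was at 18.3, 18.7 and 13.2 CPM with DMSO and at 6 counts in all with abemaciclib, a ratio of 24.2 (10.9 to 67.01), while TFRC, the transferrin receptor, rose from 94.4, 95.7 and 89.8 CPM to 155, 161 and 164 CPM (0.77 ± 0.10). Among retinoid genes 4 of 11 were higher and 0 lower (median 0.28), led by RDH11, a retinol dehydrogenase, at 118, 119 and 127 CPM against 223, 228 and 215 CPM (0.87 ± 0.08, adjusted p = 3.58e-13). The higher retinoid genes numbered 2 without DMSO replicate 1 or abemaciclib replicate 2 or 3. Aldehyde dehydrogenases had 4 of 10 higher and 1 lower (median 0.26). Cytochrome P450 enzymes had 3 of 8 higher and 0 lower (median 0.48), including CYP1B1, which hydroxylates oestradiol, at 175, 219 and 239.8 CPM against 399, 419 and 398 CPM (0.94 ± 0.08). Subunits of ATP synthase had 7 of 19 higher and 3 lower (median 0.10), with ATP5F1D higher by 0.67 ± 0.11 and ATP5ME lower by 0.51 on the log2 scale. In the WNT list 3 of 23 were higher and 4 lower, close to the shares over all genes, with a median of -0.26. Of the lists not described by name, 35 had 5 or more tested members, with 12.5 to 48.6% of members called and medians from -0.24 to 0.25. They include the PI3K, AKT, FOXO and mTOR pathway (2 of 32 higher, 3 lower), interferon-stimulated genes (6 of 24 higher, 4 lower), NF-kB pathway genes (3 of 18 higher, 2 lower), the primary cilium (5 of 39 higher, 3 lower) and the tricarboxylic acid cycle (6 of 26 higher, 3 lower). The lower genes of the PI3K list numbered 5 without DMSO replicate 2, the lower interferon-stimulated genes 2 without DMSO replicate 1, and the higher NF-kB genes 1 without DMSO replicate 1 or abemaciclib replicate 2.

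The largest rises outside the cell cycle and oestrogen lists were of genes nearly silent with DMSO. A gene under the floor with DMSO could pass the filter on low counts only through libraries of a drug. Such a gene could not have been called lower, and a ranking by fold change favours it. PGLYRP2, which cleaves bacterial peptidoglycan, was at 0.321, 0.602 and 0.677 CPM with DMSO, under the floor, and at 17.5, 23.02 and 17.7 CPM with abemaciclib, a ratio of summed counts of 36.5 (exact 95% counting interval 15.3 to 114). CAMP, the antimicrobial peptide cathelicidin, had 4 counts with DMSO and 89 with abemaciclib (ratio 24.2, 9.12 to 90.7). The water channel AQP8 had 3 and 87 (31.5, 10.4 to 156), and VPREB3 had 5 and 58 (12.6, 5.10 to 40.3). CLDN2, a pore-forming claudin, was expressed in all libraries, at 3.53, 2.11 and 2.37 CPM against 61.2, 68.04 and 69.4 CPM (4.61 ± 0.21, adjusted p = 4.93e-26). CYP4B1, a cytochrome P450, rose from 4.17, 4.82 and 4.40 CPM to 39.2, 39.6 and 45.1 CPM (3.19 ± 0.20) and LRG1, a secreted leucine-rich glycoprotein, from 2.89, 5.72 and 1.69 CPM to 32.4, 24.03 and 40.9 CPM (3.19 ± 0.27). PAQR5, a membrane progestin receptor, rose from 2.25, 3.01 and 1.02 CPM to 22.3, 20.99 and 16.2 CPM (3.21 ± 0.33). The remaining 4 of the 12 largest rises, TUBA3D, KCNQ3, GPR37L1 and VSTM2L, had log2 fold changes of 3.02 to 3.47.

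Among the largest falls, NEURL1B, a ubiquitin ligase of the Notch pathway, was at 156, 138 and 146 CPM with DMSO and at 3.24, 5.08 and 3.08 CPM with abemaciclib (-5.25 ± 0.17, adjusted p = 1.86e-32). CNIH2, an auxiliary subunit of glutamate receptors, was at 36.3, 43.6 and 33.9 CPM against 0, 1.69 and 1.93 CPM (-4.99 ± 0.33), and PHF19, a partner of the Polycomb repressive complex that methylates histone H3, at 57.5, 48.8 and 52.2 CPM against 2.59, 1.69 and 3.86 CPM (-4.29 ± 0.25). The ubiquitin ligase RNF157, the transporter SLCO3A1, the phosphatase PPM1E and the nuclear receptor RORB had 163, 82, 73 and 63 counts with DMSO and 5, 3, 3 and 1 with abemaciclib. Their ratios were 29.99 (12.6 to 93.6), 25.1 (8.31 to 124), 22.4 (7.36 to 111) and 57.95 (10.03 to 2325) in favour of DMSO, so that the last had almost no upper limit. TMPO-AS1, an antisense RNA whose reads cannot be told from those of TMPO if counting ignored strand, had 134 counts with DMSO and 2 with abemaciclib (ratio 61.6, 16.7 to 514). The other falls among the 12 largest were SLC7A11, CBLN2 and NMU, described above, and TMSB15A, a thymosin that binds actin (-4.34 ± 0.48).

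**Figure D4:**
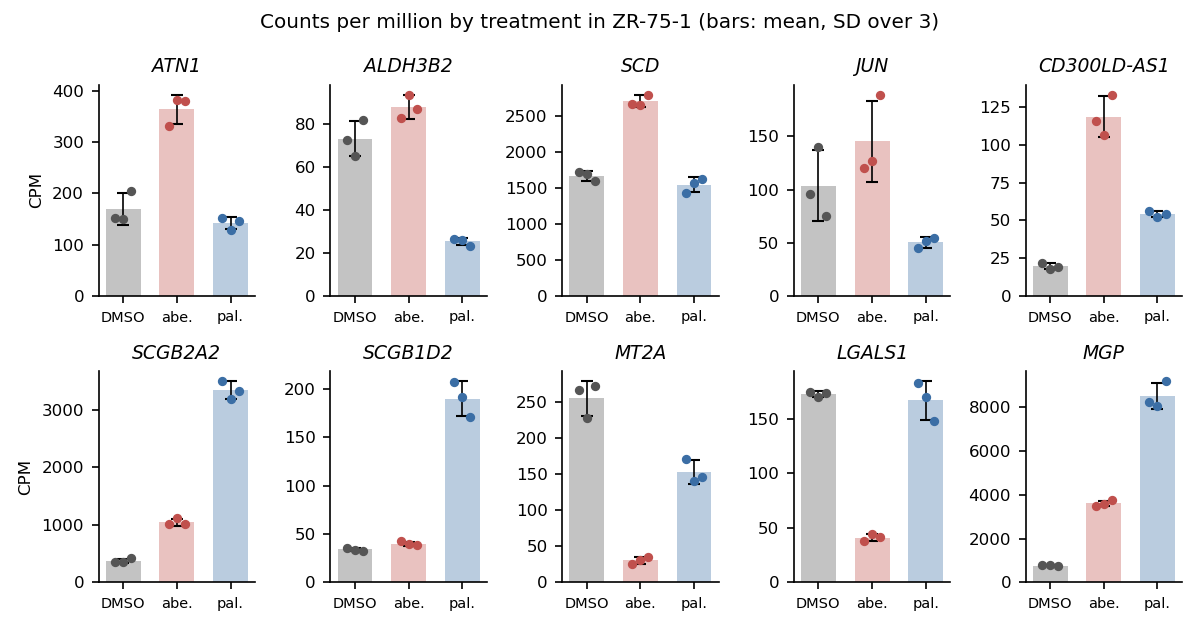
CPM of 10 genes in each of the 3 DMSO (grey), 3 abemaciclib (red, abe.) and 3 palbociclib (blue, pal.) libraries of ZR-75-1, with bars for the mean and error bars for the SD, each axis starting at 0. The upper 5 genes were higher with abemaciclib than with palbociclib and the lower 5 lower. LGALS1 is low with abemaciclib only.

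The 2 inhibitors were compared at 500 nM and 5 days. Of 11017 genes, 576 were higher and 875 lower with abemaciclib than with palbociclib, 13.2% together. The contrasts of each drug with DMSO share the DMSO libraries, so the difference was tested directly. LGALS1, which encodes galectin-1, was at 174, 170.1 and 174 CPM with DMSO, 37.9, 44 and 41.3 CPM with abemaciclib and 183, 169.6 and 148 CPM with palbociclib, a difference between the drugs of -2.02 ± 0.10 on the log2 scale (adjusted p = 8.49e-23). MT2A was at 171, 140.5 and 146 CPM with palbociclib, between the other treatments (-2.34 ± 0.12). SCGB1D2, a secretoglobin, did not pass the test with abemaciclib against DMSO (0.24 ± 0.13, adjusted p = 0.16) and was at 207, 191 and 171 CPM with palbociclib, against 42.4, 39.9 and 38.2 CPM with abemaciclib (-2.24 ± 0.11, adjusted p = 4.72e-24). The related SCGB2A2 and the matrix protein MGP rose with both drugs but less with abemaciclib, with differences of -1.68 ± 0.07 and -1.23 ± 0.06.

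In the other direction, ATN1, a transcriptional corepressor, was at 331, 382 and 379 CPM with abemaciclib and 151, 129 and 145 CPM with palbociclib, against 152, 150.2 and 205 CPM with DMSO (1.36 ± 0.09, adjusted p = 2.30e-18). SCD rose with abemaciclib but was at 1433, 1574 and 1632 CPM with palbociclib (0.81 ± 0.06), and its regulator SREBF1 differed by 0.83 ± 0.09. ALDH3B2, a lipid aldehyde dehydrogenase, was at 82.8, 93.8 and 87.1 CPM with abemaciclib and 26.6, 26.1 and 23.4 CPM with palbociclib (1.79 ± 0.13), although its change against DMSO did not pass the test with abemaciclib (adjusted p = 0.059). JUN differed by 1.52 ± 0.14, and CD300LD-AS1, an antisense RNA of uncertain strand, by 1.12 ± 0.11. Gene lists differed in how many members separated the drugs. The acute phase, complement and lipocalin list had 6 of 11 lower with abemaciclib than with palbociclib and 1 higher. Its median against DMSO was 1.47 with abemaciclib and 2.47 with palbociclib. Serpins had 3 of 9 lower and 0 higher, and tubulins 7 of 14 lower and 0 higher. AP-1 and immediate early genes had 12 of 30 members higher with abemaciclib than with palbociclib and 5 lower, and ZFP36 was at 2.47, 3.97 and 8.09 CPM with palbociclib (2.44 ± 0.29, adjusted p = 1.97e-09). The p53 targets had 11 of 33 lower and 1 higher, CDKN1A by -1.44 ± 0.13. Splicing factors had 12 of 40 lower and 0 higher, and kinesins 15 of 31 lower and 0 higher. Lysosomal genes had 7 of 44 higher and 1 lower. CTSD was the lower member, with 1637, 1577 and 1592 CPM on palbociclib (-0.62 ± 0.06). Aminoacyl-tRNA synthetases had 0 of 20 past this test in either direction, with differences for MARS1 and AARS1 of -0.25 ± 0.12 and -0.14 ± 0.08 (adjusted p = 0.19 and 0.28), which does not show that the drugs act alike on them.

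The response in ZR-75-1 was also set against that of CAMA-1 at the same dose and time, in a model of all 18 libraries. Of 11987 genes tested, the response was higher in ZR-75-1 for 982 and lower for 1203, 18.2% together. Of 10124 genes tested in both lines, 2146 were called in both, 1901 of them in the same direction, and 245 were called in opposite directions with a difference that also passed the test. CDKN1A and GDF15 were such genes. CDKN1A changed by -2.48 ± 0.12 in ZR-75-1 and by 1.99 ± 0.19 in CAMA-1, a difference of -4.49 ± 0.22 (adjusted p = 7.89e-26), and GDF15 by -3.16 ± 0.15 and 3.01 ± 0.17, a difference of -6.19 ± 0.23 (adjusted p = 1.10e-31). KRT81 likewise fell in ZR-75-1 and rose in CAMA-1 (3.70 ± 0.25), and MGP and IRX3 rose in ZR-75-1 and fell in CAMA-1 (-0.63 ± 0.06 and -0.75 ± 0.06).

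**Figure D5:**
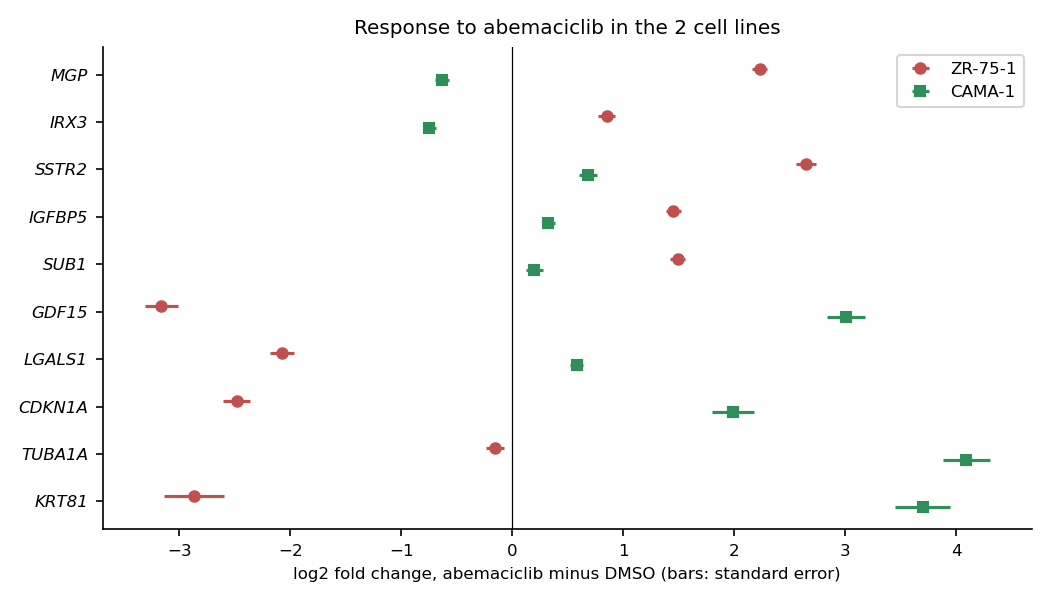
Log2 fold change (abemaciclib minus DMSO) in ZR-75-1 (red circles) and CAMA-1 (green squares) of the 10 genes named for the difference between the lines, with bars for the standard error from the fit within each line. GDF15, CDKN1A and KRT81 are below 0 in ZR-75-1 and above 0 in CAMA-1, and MGP and IRX3 the reverse.

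By list, the p53 targets had 13 of 33 members with a lower response in ZR-75-1 and 0 with a higher one. AP-1 and immediate early genes had 16 of 30 lower and 2 higher, and the ATF4 list 15 of 30 lower and 2 higher. SLC7A11 changed by -0.22 ± 0.42 in CAMA-1 and ATF4 by -0.72 ± 0.09, differences of -4.21 ± 0.55 and -0.98 ± 0.14. In the aminoacyl-tRNA synthetases 9 of 20 were lower and 2 higher. Lysosomal genes had 13 of 44 higher in ZR-75-1 and 1 lower, and reticulum chaperones 13 of 27 higher and 1 lower. NPC2 changed by 0.09 ± 0.12 in CAMA-1 (difference 1.26 ± 0.15, adjusted p = 1.58e-09). Splicing factors, by contrast, had 1 of 40 higher and 1 lower, with medians of -0.49 in ZR-75-1 and -0.56 in CAMA-1. The S100 proteins had 5 of 8 lower in ZR-75-1, and S100A14 changed by 0.36 ± 0.05 in CAMA-1. All 15 mitochondrially encoded transcripts had a lower response in ZR-75-1 and 49 of 78 cytosolic ribosomal proteins a higher one. The mitochondrial share of counts in CAMA-1 was 14.8 to 16.6% with DMSO and 23.4 to 26.1% with abemaciclib, and the part of that shift in the differences between the lines was not tested.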

How the data were processed

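RNA of 18 cultures was read by 3′ mRNA sequencing. The authors trimmed reads with BBDuk, aligned them to hg38 with STAR 2.7.5b and counted them per gene with featureCounts 2.0.1 on GENCODE, and deposited raw counts for 60656 genes, 35543 of them with no count in any library. Strand, multi-mapping and molecular identifier settings are not given in the sources used here, so that reads of copies and antisense partners may be shared.

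The 9 ZR-75-1 libraries were fitted together with edgeR 4.0.16 (R 4.3.3; TMM scaling, filterByExpr, quasi-likelihood test, Benjamini-Hochberg adjustment, called at an adjusted p under 0.05), with all 18 in the fit of the difference between lines. The script was tested on simulated data. CPM are scaled by TMM. Fold changes carry their SE, and the biological coefficient of variation was 8.30%. A fold against a group whose libraries are all at 0 is a lower bound against the floor (3 counts per library). Where a group had at most 3 counts in each library but was not at 0 in all, the ratio of summed counts, scaled for library size, is given with an exact (Clopper-Pearson) 95% interval. Intervals and floors cover counting error only.

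The gene lists and the comparison itself were chosen with earlier results of these data known. Genes are named by rule: the 12 largest rises and falls with at least 10 mean counts and no overlap of groups, outside the cell cycle and oestrogen lists, up to 4 called members of each list in its main direction and 2 in the other, and the 5 smallest p per direction for the drugs and the lines. Further members given by fold change, and the promoters printed, were chosen after their values were seen. Alternatives were RLE and upper-quartile scaling, DESeq2 1.42.0, no filter, only the 6 libraries, the replicate number as a block, and leaving out each library. Promoter windows came from RefSeq (GRCh38.p14). A few genes and 1 list are not reported here.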

Additional observations from a re-analysis of the deposited data

Results flagged for a closer look

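The response to abemaciclib differed between ZR-75-1 and CAMA-1, by the test of the difference over all 18 libraries (edgeR's quasi-likelihood test with Benjamini-Hochberg adjustment over 11987 genes), for these 10 genes, the 5 with the smallest p in each direction outside the cell cycle and oestrogen lists. Differences are on the log2 scale with their SE, and are positive where ZR-75-1 had the higher fold change.

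MGP, a matrix protein that restrains calcification, differed by 2.83 ± 0.09 (2.23 ± 0.07 in ZR-75-1, -0.63 ± 0.06 in CAMA-1, adjusted p = 1.25e-35). IRX3, a homeobox factor, differed by 1.58 ± 0.10 (0.85 ± 0.08 in ZR-75-1, -0.75 ± 0.06 in CAMA-1, adjusted p = 5.07e-21). SSTR2, a somatostatin receptor, differed by 1.94 ± 0.12 (2.64 ± 0.09 in ZR-75-1, 0.68 ± 0.08 in CAMA-1, adjusted p = 1.35e-20). IGFBP5, a binding protein of insulin-like growth factors, differed by 1.10 ± 0.09 (1.45 ± 0.07 in ZR-75-1, 0.32 ± 0.06 in CAMA-1, adjusted p = 2.21e-16). SUB1, a transcriptional coactivator, differed by 1.27 ± 0.10 (1.49 ± 0.07 in ZR-75-1, 0.20 ± 0.08 in CAMA-1, adjusted p = 3.13e-16). These 5 had the higher response in ZR-75-1, and MGP and IRX3 rose there and fell in CAMA-1.

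GDF15, a stress cytokine, differed by -6.19 ± 0.23 (-3.16 ± 0.15 in ZR-75-1, 3.01 ± 0.17 in CAMA-1, adjusted p = 1.10e-31). LGALS1, galectin-1, differed by -2.68 ± 0.11 (-2.07 ± 0.10 in ZR-75-1, 0.58 ± 0.06 in CAMA-1, adjusted p = 7.38e-29). CDKN1A, the gene of p21, differed by -4.49 ± 0.22 (-2.48 ± 0.12 in ZR-75-1, 1.99 ± 0.19 in CAMA-1, adjusted p = 7.89e-26). TUBA1A, an alpha-tubulin, differed by -4.27 ± 0.22 (-0.15 ± 0.08 in ZR-75-1, 4.09 ± 0.21 in CAMA-1, adjusted p = 1.36e-24). KRT81, a hair keratin, differed by -6.59 ± 0.36 (-2.87 ± 0.27 in ZR-75-1, 3.70 ± 0.25 in CAMA-1, adjusted p = 5.18e-23). These 5 had the lower response in ZR-75-1. TUBA1A did not pass the test in ZR-75-1 (adjusted p = 0.14) and is similar in sequence to other alpha-tubulins. The mitochondrial share of counts in CAMA-1 was 14.8 to 16.6% with DMSO and 23.4 to 26.1% with abemaciclib, against 17.3 to 22.6% and 18.5 to 20.5% in ZR-75-1, and its part in these differences was not tested. Groups of 3 libraries were not searched for outlying samples.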

How the results depend on the processing

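The number of genes changed with abemaciclib, 3985, was 3992 with RLE scaling, 3981 with upper-quartile scaling, 3429 with DESeq2, 3845 with no filter, 4038 with the 6 libraries alone and 3487 to 3601 without each library in turn, of which 3310 to 3379 were among the 3985. Between the drugs, 1451 genes became 1071 with DESeq2 and 1062 to 1298 without each library, and between the lines 2185 became 1866 with no filter and 1887 to 2118 without each library. Replicate numbers are shared by the labels of the treatments, but libraries of the same number did not deviate together (correlations of -0.030 to 0.006 in ZR-75-1). Deviations from means of 3 libraries carry counting noise, so this check cannot show that the samples were unpaired. With the number as a block the counts were 3953, 1473 and 2094. None of the 3985 was called in the opposite direction in any of these settings. Of 5518 alternative values for the named genes, 5397 kept their direction and side of the threshold, 121 lost the call and 0 reversed, and 37 genes lost a call in at least 1 setting. Most named genes were picked for the smallest p or the largest change in these data, which favours such stability. Settings in which a gene was not tested are left out of these values. The median log2 fold change of all genes, -0.0037, was 0.0030 with RLE scaling and 0.0071 with upper-quartile scaling, and 48.75 to 50.9% of the calls were higher. Depth limits the account to genes that passed the filter on low counts. In any list, a gene near silent with DMSO could pass it only through libraries of a drug.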
